A study of Mus musculus with 37 samples.

Results

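Cell cycle and proliferation genes were examined in whole mammary glands of mice kept under calorie restriction, with a running wheel, with both or with neither. The set was a list of 41 gene symbols running from the D cyclins that start the cycle to the enzymes that end mitosis. Every probe set on the array that named one of them was taken, and a gene's value was taken from the brightest of its probe sets, judged by the mean of the 37 arrays. At least 1 probe set named 40 of the 41 genes, and Ccnb1 was named by none of those used. Of these 40, 27 were bright enough to be tested beside 9294 of the 12393 genes on the array, and 13 lay below the filter. The 13 were Mki67, Ccnb2, Ccne1, Ccne2, Cdk1, Cdc6, Tyms, Tk1, Bub1, Bub1b, Birc5, Tpx2 and Ube2c, which include several of the most used markers of dividing cells.

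The animals were female C57BL/6 mice that were 9 weeks old when they were assigned to groups, and they were followed for 6 weeks. Mice of the AL group ate freely and had no wheel (10 arrays), and AL+EX mice ate freely and had a running wheel (9 arrays). CR mice received 70% of the calories of AL mice and had no wheel (9 arrays), and CR+EX mice received the same restricted diet and had a wheel (9 arrays). Thoracic glands of both sides were pooled for RNA within an animal, and each animal had 1 Affymetrix array, so every tissue of the dissected gland is present in a value.

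A cell enters the cycle when D cyclins and their kinase Cdk4 inactivate the retinoblastoma protein, which releases E2F factors that switch on the genes of DNA replication. Genes needed for mitosis are switched on later, largely through the DREAM and B-Myb complexes and FoxM1. These act at CHR elements in the promoters, which often hold CCAAT elements as well. In the mammary gland the ductal epithelium is one place where cells divide, while lymphoid tissue in the fat pad is a separate one.

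Signals are Affymetrix intensities, used as log2(signal + 16), and differences are on that scale, which understates the change of dim genes. Any pair of arrays correlated at 0.869 to 0.984 on this scale. Arrays fell apart in B lymphocyte genes, of which 15 of a list of 19 were named by a probe set and 13 were tested. The mean of those 13 was 6.19 to 6.92 in 22 arrays and 7.73 to 9.88 in the other 15, with none between. The signal of Cd79b, a subunit of the B cell receptor complex, was 10.1 at the lowest, 56.8 at the median and 109.5 at the highest in the 22 arrays. In the 15 arrays it was 237.7, 782.7 and 1852. All groups held both kinds: 4 of the 15 came from each of AL, AL+EX and CR, and 3 from CR+EX. When the animal numbers were cut after every 24, the 4 runs held 3 of 8, 1 of 11, 3 of 10 and 8 of 8 such arrays. Nothing in the labels makes a run a batch, and inside each run AL animals have the lowest numbers, followed by AL+EX, then CR, then CR+EX. Luminal epithelial genes (21 tested) had means of 7.84 to 10.5 and adipocyte genes (12 tested) of 12.0 to 13.6, so neither type was missing from any array.

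Promoters of the genes are shown because many of the genes belong to the 2 waves of transcription described above. RefSeq gave 37 windows on GRCm38.p6 for 33 of the 41 genes, each of 300 bases, from 250 before to 50 after a start. They were searched on both strands for the E2F words TTTGGCGC, TTTCCCGC, TTTCGCGC and TTTGCCGC, for the CHR words TTTGAA and TTCGAA, and for CCAAT. An E2F word was found in 8 of the 37 windows (21.6%), against 2.26% of all 32851 windows in the table. A CHR word was found in 13 (35.1%, against 19.2%), and CCAAT in 25 (67.6%, against 37.4%). The same windows held both CHR and CCAAT in 13 cases (35.1%, against 7.52%). They belonged to 13 genes. All were among the 26 genes of S phase and mitosis with a window, and none was among the 7 G1 cyclins, kinases and CDK inhibitors with one. Among genes with a window, 12 are called below as rising with B lymphocyte genes across arrays. Of these, 3 held an E2F word, 5 a CHR word and 11 CCAAT. Of the 9 other tested genes with a window, 3, 2 and 6 did. A match is a description of these letters only. In the following windows, written 5′ to 3′ on the gene's strand, matches in either direction are in capitals. They are Top2a at chr11:99024140-99024439 (minus strand), Plk1 at chr7:122159185-122159484 (plus), Mcm5 at chr8:75109259-75109558 (plus), Cdt1 at chr8:122567765-122568064 (plus) and Cdk4 at chr10:127063285-127063584 (plus).
Top2a: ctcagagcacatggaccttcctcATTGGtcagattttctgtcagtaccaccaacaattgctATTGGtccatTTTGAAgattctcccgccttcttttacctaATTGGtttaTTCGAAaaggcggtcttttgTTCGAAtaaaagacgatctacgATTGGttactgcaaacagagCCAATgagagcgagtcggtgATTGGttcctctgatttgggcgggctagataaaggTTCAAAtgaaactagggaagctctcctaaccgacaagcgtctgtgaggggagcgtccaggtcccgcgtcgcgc
Plk1: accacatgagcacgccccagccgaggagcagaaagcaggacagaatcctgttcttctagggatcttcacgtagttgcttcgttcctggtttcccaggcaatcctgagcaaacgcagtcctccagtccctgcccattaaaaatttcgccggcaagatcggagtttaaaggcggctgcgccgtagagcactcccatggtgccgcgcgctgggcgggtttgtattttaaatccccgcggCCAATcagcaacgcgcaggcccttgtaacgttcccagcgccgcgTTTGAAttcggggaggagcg
Mcm5: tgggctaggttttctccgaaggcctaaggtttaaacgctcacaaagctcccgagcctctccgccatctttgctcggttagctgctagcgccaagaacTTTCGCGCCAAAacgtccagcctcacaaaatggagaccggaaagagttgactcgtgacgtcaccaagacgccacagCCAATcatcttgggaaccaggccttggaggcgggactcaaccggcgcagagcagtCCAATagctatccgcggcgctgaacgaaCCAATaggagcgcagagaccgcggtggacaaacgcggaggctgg
Cdt1: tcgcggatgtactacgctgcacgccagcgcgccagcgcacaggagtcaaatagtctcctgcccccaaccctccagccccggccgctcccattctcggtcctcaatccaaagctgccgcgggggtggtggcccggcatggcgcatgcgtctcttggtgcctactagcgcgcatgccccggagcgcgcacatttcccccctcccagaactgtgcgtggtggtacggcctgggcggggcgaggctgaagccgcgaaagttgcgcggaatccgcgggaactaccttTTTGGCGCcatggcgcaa
Cdk4: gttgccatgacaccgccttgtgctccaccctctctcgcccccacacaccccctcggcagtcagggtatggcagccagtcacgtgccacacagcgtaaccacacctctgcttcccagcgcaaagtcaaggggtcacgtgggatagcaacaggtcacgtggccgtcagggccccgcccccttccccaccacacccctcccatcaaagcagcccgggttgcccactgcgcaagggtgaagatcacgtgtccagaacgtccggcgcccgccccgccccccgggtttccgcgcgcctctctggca
The Top2a window, of a topoisomerase that untangles sister chromosomes, holds 4 CHR and 6 CCAAT matches. Plk1, a kinase of mitotic entry, has 1 of each. The windows of the replication genes Mcm5 and Cdt1 hold E2F words, of which the 2 in Mcm5 overlap on opposite strands. No match was found in the window of Cdk4.

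**Figure D1:**
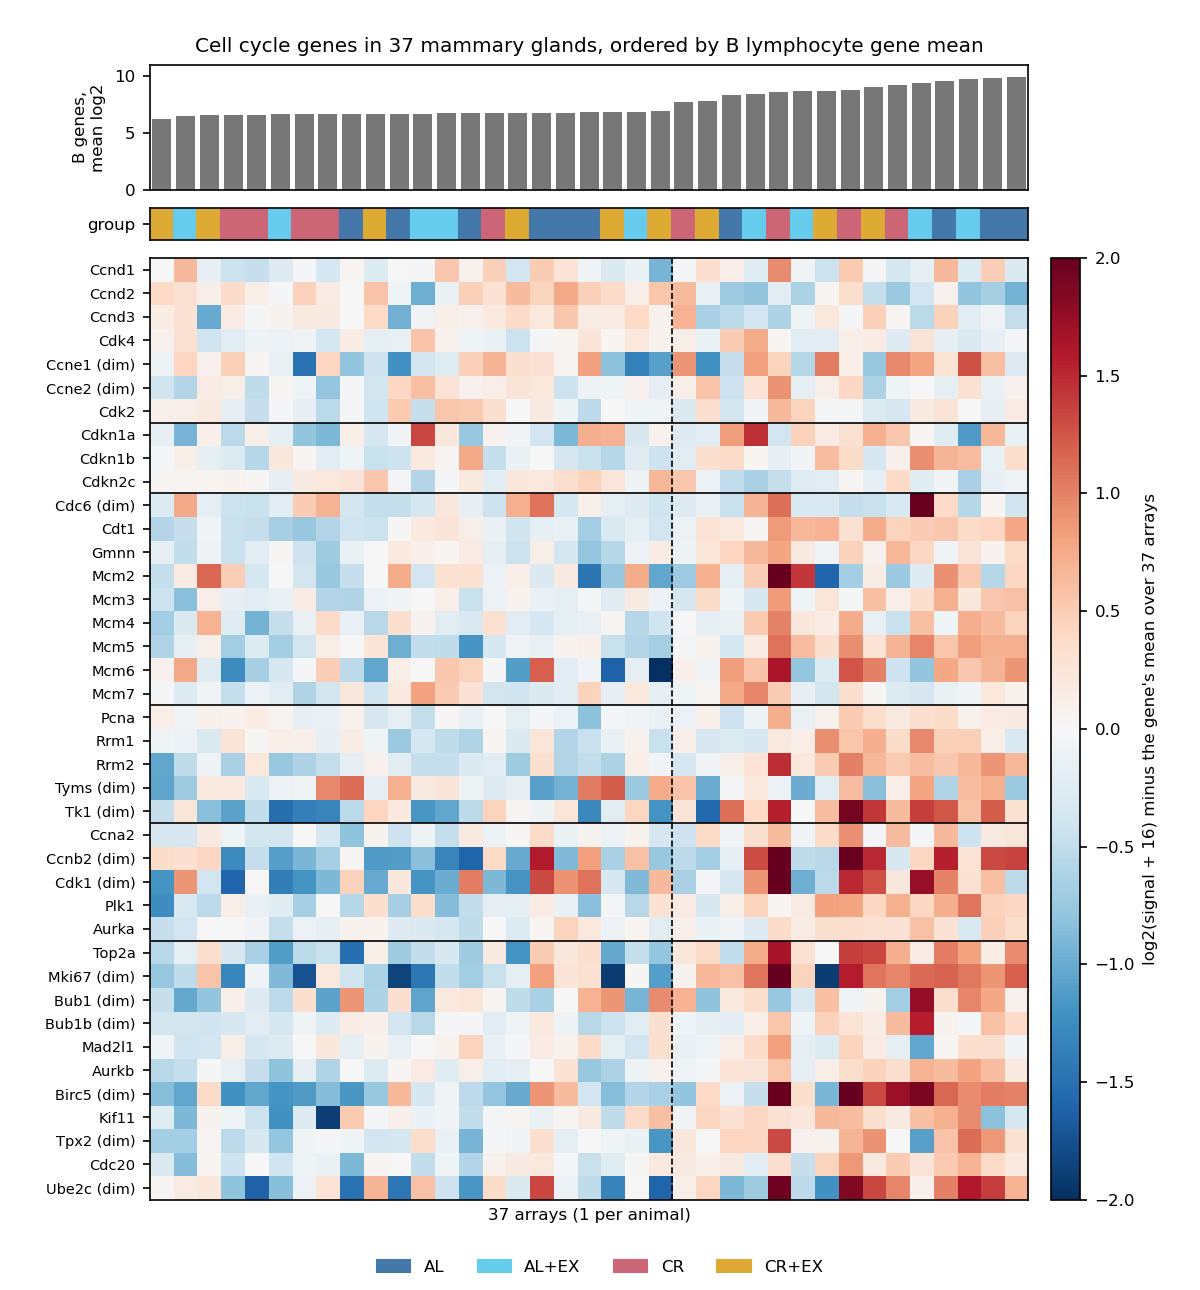
Heat map of log2(signal + 16) minus each gene's mean over the 37 arrays, for 40 cell cycle genes in rows by role and 37 arrays in columns ordered by the mean of B lymphocyte genes (bars on top, mean log2 signal; the colour strip gives the group). Colours are limited at 2 in either direction, "dim" marks the 13 genes below the filter, and the dashed line parts the 22 arrays with low B lymphocyte genes from the other 15. Most rows of replication and mitosis genes are redder to the right of the line, while the group colours are mixed on both sides.

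No cell cycle gene passed the test in any comparison between groups. In the contrast of the 18 restricted with the 19 unrestricted arrays, averaged over wheel states, 0 of 27 were called at an adjusted p under 0.05 by limma, where 8.75% of all tested genes were. The counts were also 0 of 27 for CR against AL (background 0.441%), CR+EX against AL (0.624%) and CR+EX against AL+EX (1.65%). For the wheel averaged over diets, the interaction of diet and wheel, AL+EX against AL and CR+EX against CR, 0 of 27 and 0% of all genes were called. The moderated F test over the 4 groups called 0 of 27 and 2.82% of all genes. At an unadjusted p under 0.05, limma marked 5 of 27 genes in the averaged CR contrast (18.5%, against 23.9% of all genes). It marked 0 for CR against AL (14.9% of all genes), 3 for CR+EX against AL (11.1%, against 13.1%) and 4 for CR+EX against AL+EX (14.8%, against 15.2%). It marked 1 (3.7%) each for the wheel (2.86% of all genes), the interaction (3.17%), AL+EX against AL (6.46%) and CR+EX against CR (0.893%). In the F test it marked 3 (11.1%, against 15.7%).

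The median CR difference of the 27 genes was -0.04, beside -0.02 for all genes tested, and single genes lay between -0.47 and 0.38. For 24 of the 27 genes the 95% interval of the CR difference stayed within 1.5-fold in either direction, and for 23 that of the wheel difference did. The contrasts between single groups were less precise: that count was 13 for CR+EX against AL+EX, 15 to 17 for the other 4, and 8 for the interaction. The median share of a gene's variance that lay between the 4 groups was 0.0643 for the 27 genes and 0.0901 for all genes tested. A missed threshold does not show that a gene was the same in all groups.

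**Figure D2:**
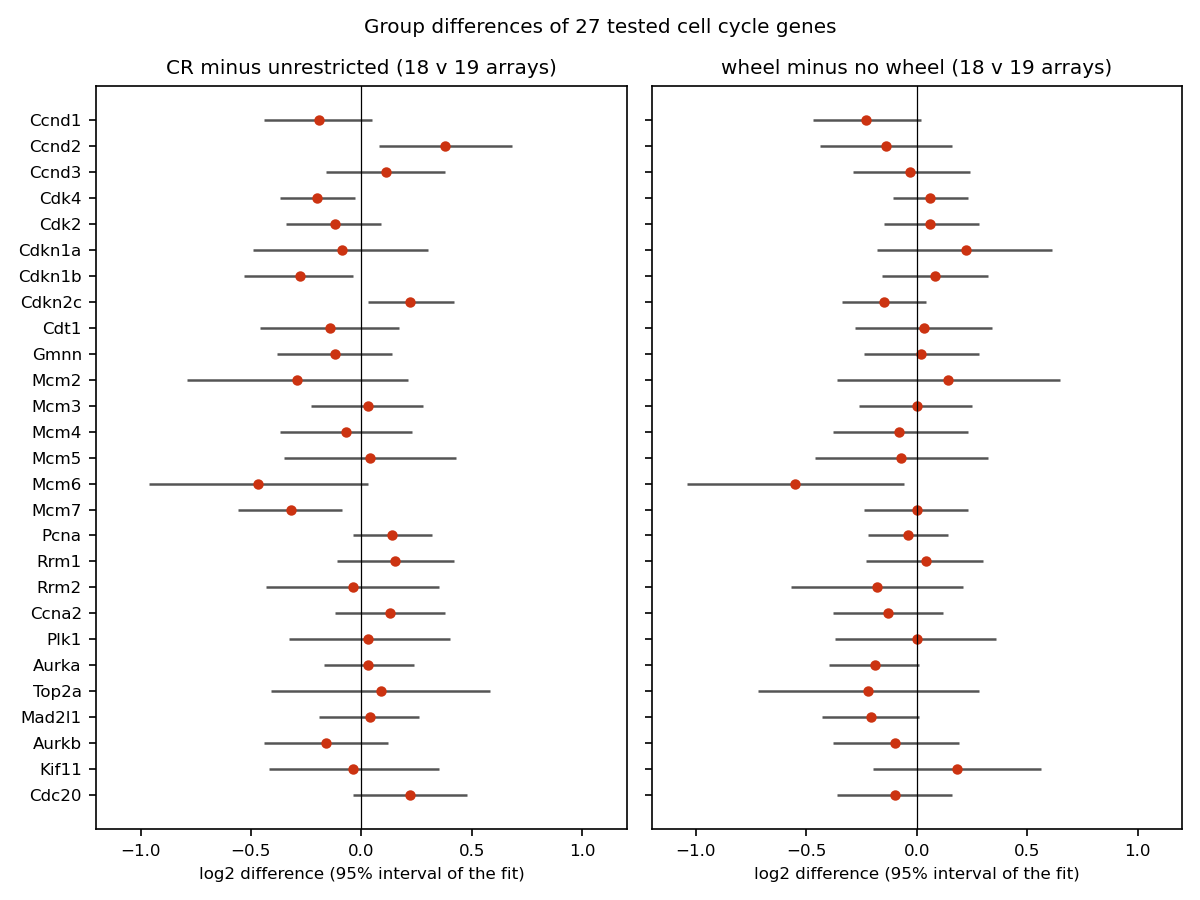
Differences of the 27 tested genes on the log2 scale with the 95% intervals of the limma fit, for the 18 restricted minus the 19 unrestricted arrays (left) and the 18 arrays with a wheel minus the 19 without (right). Points lie on both sides of 0, from -0.47 (Mcm6) to 0.38 (Ccnd2) for CR, and the widest intervals belong to Mcm2, Mcm6 and Top2a.

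Among the G1 genes, Cyclin D2 (Ccnd2) had the largest positive CR difference. Its signals ran from 1395 to 4569 (median 2779) in AL, 1374 to 3358 (2068) in AL+EX, 1604 to 4225 (3312) in CR and 1937 to 4183 (3541) in CR+EX. The 4 groups overlapped throughout, with the lowest median in AL+EX and the highest in CR+EX. The averaged CR difference was 0.38 ± 0.15 (SE, adjusted p 0.095), and CR+EX against AL+EX gave 0.59 ± 0.21 (adjusted p 0.15). Its 6 other probe sets gave CR differences of 0.63, 0.43, 0.31, 0.23, -0.23 and -0.28, so they did not all point the same way. Without the CR replicate 8 array the averaged difference passed, at 0.44.

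Cdk4, the kinase that D cyclins activate, had signals of 524.7 to 847.9 (median 573.8) in AL and 476.8 to 993.9 (681.6) in AL+EX. In CR they were 458.2 to 639.2 (550.9) and in CR+EX 434.7 to 663 (537.7). Both restricted groups had lower medians and lower highest values, within overlapping ranges. The CR difference was -0.20 ± 0.08 (adjusted p 0.12). Cyclin D1 (Ccnd1), which is needed for growth of the milk-forming lobules in pregnancy, had medians of 1129 in AL, 952.6 in AL+EX, 1024 in CR and 858.3 in CR+EX. Its values ran from 537.5 in a CR+EX array to 2023 in a CR array, and its CR difference was -0.19 ± 0.12 (adjusted p 0.34). The other, dimmer Ccnd1 probe sets gave larger CR differences of the same sign, -0.33 ± 0.15 and -0.58 ± 0.23. Ccnd3 (0.11 ± 0.13) and Cdk2 (-0.12 ± 0.11) had adjusted p values of 0.67 and 0.52.

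Of the inhibitors of these kinases, Cdkn2c, which blocks Cdk4 and Cdk6, had signals of 1789 to 3426 (median 2687) in AL and 1597 to 2616 (2142) in AL+EX. In CR they were 1824 to 3659 (2662) and in CR+EX 2146 to 3992 (2637). AL+EX stood lowest, and the other groups had like medians. CR+EX against AL+EX gave 0.43 ± 0.14 (adjusted p 0.096) and the averaged CR contrast 0.22 ± 0.09 (adjusted p 0.13). Cdkn1b, which restrains Cdk2, had medians of 405.2 in AL, 452.5 in AL+EX, 356.3 in CR and 364.2 in CR+EX, with a CR difference of -0.28 ± 0.12 (adjusted p 0.13). Cdkn1a, a target of p53, had medians of 1396, 1528, 1246 and 1589 in the same order, and a CR difference of -0.09 ± 0.19 (adjusted p 0.82). It had the widest range of the inhibitors, from 673.3 to 4113, and both of those arrays belonged to AL+EX.

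In the licensing group, which loads the Mcm2 to Mcm7 helicase onto replication origins, Mcm7 came nearest to the threshold. Its signals were 842.2 to 1747 (median 1184) in AL, 809.8 to 2037 (976.8) in AL+EX, 669.9 to 1475 (847.4) in CR and 778.5 to 1059 (920.1) in CR+EX. Restricted arrays were lower at the median, and the ranges overlapped. The CR difference was -0.32 ± 0.11 (adjusted p 0.067), which is 0.799-fold. The 3 other Mcm7 probe sets gave 0.04, -0.05 and -0.14, so the difference was not seen in all of them. Leaving out 1 array brought Mcm7 past the threshold in 6 of 37 fits, those without AL replicate 5 (-0.35), AL+EX replicates 3 (-0.35), 5 (-0.35) or 9 (-0.36), or CR replicates 1 (-0.37) or 9 (-0.35).

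Mcm6 had signals of 119.6 to 428.5 (median 271.3) in AL, 96.8 to 311.7 (176.4) in AL+EX, 64.9 to 582.3 (173.9) in CR and 26 to 376 (144.3) in CR+EX. The medians stood highest in AL and lowest in CR+EX, and single arrays spread widely within each group. CR+EX against AL gave -1.02 ± 0.34 (adjusted p 0.15), and its wheel difference was -0.55 ± 0.24 (adjusted p 1). Mcm2 had a CR difference of -0.29 ± 0.25 (adjusted p 0.52). The remaining licensing genes, Cdt1, its inhibitor Gmnn, Mcm3, Mcm4 and Mcm5, had CR differences between -0.14 and 0.04.

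No gene of the replication fork or of nucleotide supply was called. Pcna, the sliding clamp of the polymerases, had medians of 1351 in AL, 1366 in AL+EX, 1487 in CR and 1503 in CR+EX, with a CR difference of 0.14 ± 0.09 (adjusted p 0.36). The ribonucleotide reductase subunits Rrm1 (0.15 ± 0.13) and Rrm2 (-0.04 ± 0.19) had adjusted p values of 0.52 and 0.93. At mitotic entry, cyclin A2 (Ccna2), Plk1 and Aurka had CR differences of 0.13, 0.03 and 0.03.

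Among spindle and exit genes, Top2a had signals of 29.5 to 247.9 (median 131.1) in AL, 43.7 to 210.2 (97.8) in AL+EX, 66.3 to 387.6 (130) in CR and 40.7 to 309.2 (112.2) in CR+EX. Each group held both low and high arrays, with a CR difference of 0.09 ± 0.24 (adjusted p 0.88). Mad2l1 and Aurkb, of the spindle checkpoint and the chromosomal passenger complex, and the spindle motor Kif11 had CR differences of 0.04, -0.16 and -0.04. Cdc20, which activates the anaphase-promoting complex, had 0.22 ± 0.13 (adjusted p 0.30).

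The 13 dim genes were fitted with no genes left out, and none of them had an adjusted CR p below 0.48 (Cdk1, -0.43 ± 0.31). Mki67, which encodes the Ki-67 antigen, had signals of 8.4 to 186.5 (median 105) in AL, 16.5 to 178.6 (73.9) in AL+EX, 10.5 to 402.1 (76.4) in CR and 7.6 to 168.6 (41) in CR+EX. The median was lowest in CR+EX, but single arrays of every group lay near the bottom and near the top, and its CR difference was -0.29 ± 0.33 (adjusted p 0.70). The SE of the CR difference was 0.13 to 0.33 in these 13 genes.

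**Figure D3:**
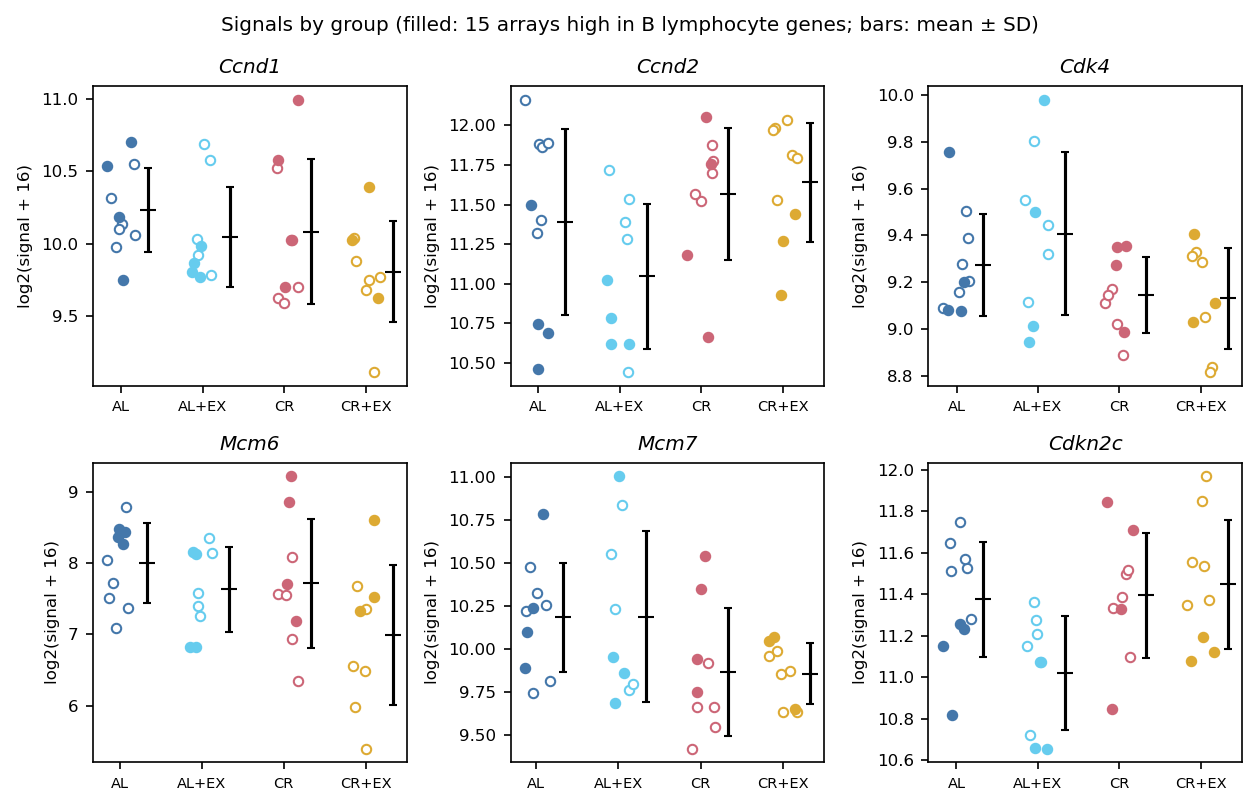
log2(signal + 16) of 6 genes by group, with 1 point per array and the mean ± SD of each group beside it. Filled points are the 15 arrays with high B lymphocyte genes. In all 6 panels the ranges of the 4 groups overlap, and within groups the filled Ccnd2 points lie mostly below the open ones.

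Fitting the run of animal numbers as a block brought calls in this set. The averaged CR contrast then called Ccnd2 (0.41 ± 0.11, adjusted p 0.011) higher and Mcm7 (-0.34 ± 0.10, 0.011) and Cdk4 (-0.21 ± 0.07, 0.041) lower. That is 3 of 27 genes, where 18.8% of all genes were called. CR+EX against AL+EX called Ccnd2 (0.59 ± 0.16, adjusted p 0.022) and Cdkn2c (0.43 ± 0.13, 0.037), 2 of 27 against a background of 6% of all genes. The F test called Ccnd2 (adjusted p 0.033), 1 of 27 against 10.3%. These shares lie near or below those of all genes. With the 15 arrays high in B lymphocyte genes left out, the averaged CR contrast called Mcm7 alone (-0.45 ± 0.12, adjusted p 0.030), 1 of 27 against 5.35%. In the same arrays Mcm6 stood at -0.82 ± 0.26 (adjusted p 0.067), Cdk4 at -0.27 ± 0.09 (0.078) and Ccnd1 at -0.40 ± 0.13 (0.080). Among the cell type markers, 3 of 21 luminal genes were called lower in the averaged CR contrast with all arrays and no block. Of 12 adipocyte genes, 2 were called higher and 1 lower. In addition, 1 of 6 plasma cell, 1 of 13 macrophage and 1 of 12 fibroblast genes were called higher. Of all 9294 genes, 389 were called higher and 424 lower. With the B lymphocyte and luminal means as covariates, 0 of 27 genes and 1.87% of all genes were called in the averaged CR contrast. Ccnd2 then stood at 0.37 ± 0.13 (adjusted p 0.13), Mcm7 at -0.18 ± 0.13 (0.55), Cdk4 at -0.14 ± 0.09 (0.53) and Mcm6 at 0.01 ± 0.23 (0.99). The part of the adipocyte genes in these differences was not tested.

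The genes went with lymphocyte genes across arrays. Each gene's slope was fitted on the mean of the 13 B lymphocyte genes, in log2 units of signal per log2 unit of that mean, with group in the fit. The slope was called positive for 16 of 27 genes and negative for 2, where 17.3% of all genes were called positive and 14.4% negative. Its median was 0.16 in the 27 genes and 0.01 in all genes. Over the 37 arrays, the B lymphocyte mean alone accounted for a median share of 0.261 of the variance of the 27 genes, against 0.0736 for all genes tested. The run of animal numbers accounted for 0.319, against 0.261. In whole glands, fewer cells of a type and less RNA per cell cannot be told apart. Other cell type lists moved along the same axis. The slope of the list mean was 0.88 for T lymphocytes, 0.21 for macrophages, 0.19 for skeletal muscle, -0.11 for adipocytes and -0.34 for luminal epithelium. With the luminal mean beside the B lymphocyte mean, 17 of 27 slopes on the latter were called positive and 2 negative (8.67% and 4.85% of all genes), with Top2a at 0.57 and Rrm2 at 0.42. Ccnd1 (0.23) and Mcm6 (0.48) gained a positive call in that fit, and Kif11 (0.26, adjusted p 0.074) lost its own. With the adipocyte mean beside the B lymphocyte mean, 15 were positive and 1 negative (20.1% and 18% of all genes), with Top2a and Rrm2 both at 0.38. The part of T lymphocytes, macrophages and muscle in these slopes was not tested in a joint fit.

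**Figure D4:**
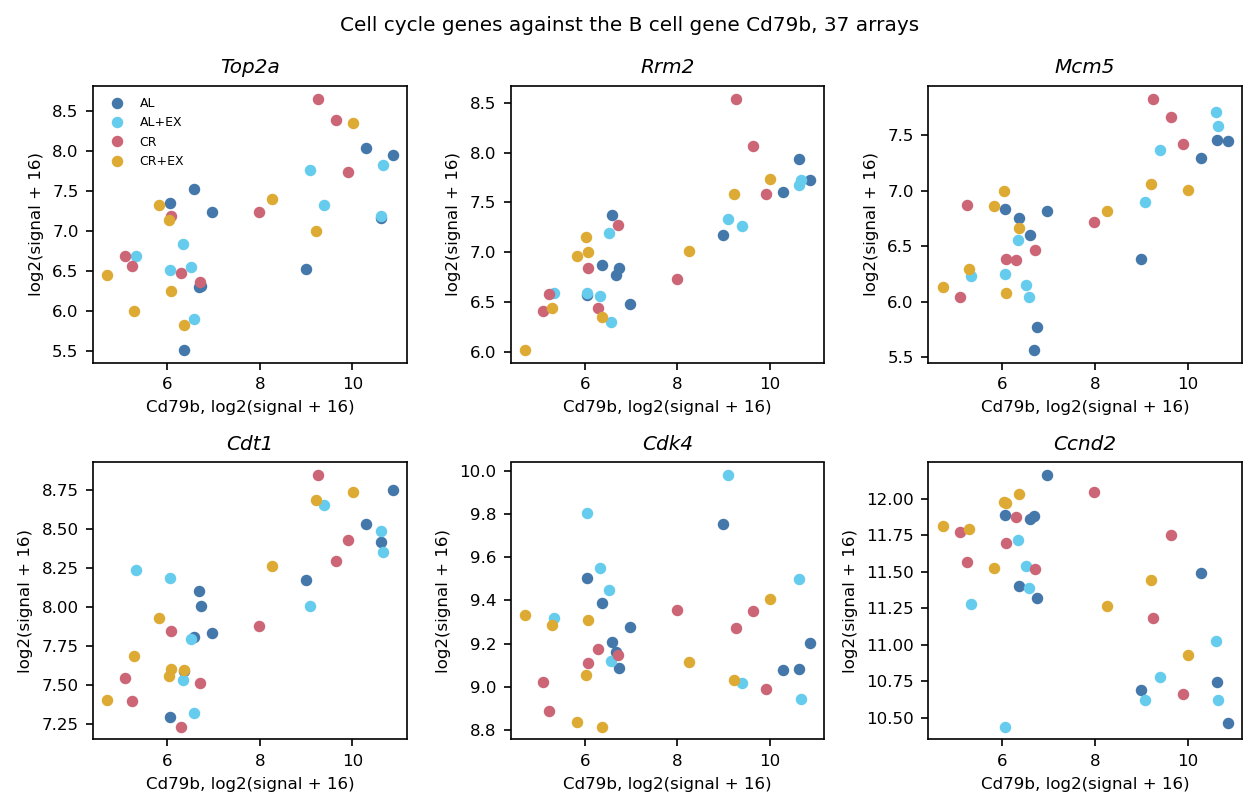
log2(signal + 16) of 6 genes against that of Cd79b in 37 arrays, coloured by group. Top2a, Rrm2, Mcm5 and Cdt1 are higher in the arrays with high Cd79b, Ccnd2 is lower there, and Cdk4 shows no trend; arrays of all 4 groups lie in both clouds.

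Among the tested genes Top2a (0.44), Rrm2 (0.40) and Mcm5 (0.39) had the steepest slopes. The filter used the mean of all arrays, so a gene could pass it through the 15 high arrays alone. In the 22 low arrays the mean log2 signals of Mcm5 (6.40), Kif11 (6.52), Top2a (6.59) and Plk1 (6.68) lay below the cut of 6.71. The share of called slopes among tested genes therefore depends partly on the filter. With no genes left out, the slopes of these genes were called as well. For Rrm2 the signal was 48.7 to 150.3 (median 80) in the 22 arrays low in B lymphocyte genes and 90.2 to 357.1 (178.3) in the other 15. The ranges overlapped, and the slope was 0.40 ± 0.05 (adjusted p 1.3e-07). Rrm1, the other subunit, had a slope of 0.20 ± 0.05 and Pcna of 0.12 ± 0.03, so all 3 tested fork and nucleotide genes were called. Mcm5 had signals of 31.3 to 111.3 (67.3) in the low arrays and of 67.4 to 211.3 (148.5) in the high ones, with a slope of 0.39 ± 0.05 (adjusted p 5.4e-07). Cdt1, which carries the helicase to origins, had 134.2 to 285.5 (177.7) and 218.6 to 443.5 (328.8), with a slope of 0.32 ± 0.04 (adjusted p 7e-08). Its range in the high arrays began above the median of the low ones. Mcm3 (0.22), Mcm4 (0.20) and Gmnn (0.19) were also called, which made 5 of 8 tested licensing genes. Mcm6 had a slope of 0.22 ± 0.10 (adjusted p 0.086), and Mcm7 of 0.03 ± 0.05. The other Mcm7 probe sets had slopes of 0.19 ± 0.04, 0.02 ± 0.06 and 0.01 ± 0.05, so they differed.

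For the mitotic genes, Top2a had signals of 29.5 to 168.3 (median 76.3) in the low arrays and 76 to 387.6 (196.8) in the high ones. The lowest high array stood at about the median of the low arrays, and the slope was 0.44 ± 0.08 (adjusted p 3.1e-05). Plk1 had 37.1 to 143.6 (91.55) and 84.7 to 247.5 (151.5), with a slope of 0.35 ± 0.05 (adjusted p 3.9e-06). Aurkb, the kinase of the passenger complex, had 57.9 to 142.3 (97.65) and 98.1 to 210.4 (147.5), with a slope of 0.26 ± 0.04 (adjusted p 1.8e-05). Ccna2 (0.16) and Aurka (0.15) completed the mitotic entry genes, all 3 of which were called. Cdc20 (0.23) and Kif11 (0.20) made 4 of 5 spindle and exit genes, and Mad2l1 was not called (0.03 ± 0.05). Kif11 lost its call when AL replicate 3 (0.19), AL+EX replicates 3 (0.18), 5 (0.18), 8 (0.18) or 9 (0.19), CR replicate 9 (0.19) or CR+EX replicate 8 (0.20) was left out.

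Dim genes of replication and mitosis were called too when no genes were left out. Of all 40 genes, 23 then had a called positive slope and 2 a negative one, where 16.8% of all genes were called positive. With the dim B lymphocyte genes also taken into the mean, these counts were 24 and 2. The dim genes among them were Birc5 (0.61), Mki67 (0.57), Tk1 (0.56), Ccnb2 (0.47), Ube2c (0.44), Tpx2 (0.28) and Bub1b (0.23). Birc5, which encodes survivin of the passenger complex, had a median of 18.2 in the 22 low arrays and 99.4 in the 15 high ones. For Mki67 these were 46.35 and 166.9, with a lowest value of 7.8 in a high array. Cdk1 (0.31, adjusted p 0.053), Ccne1, Ccne2, Cdc6, Tyms and Bub1 were not called.

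In the fit without the luminal mean, the G1 genes did not share this pattern. No G1 cyclin or kinase had a called positive slope there, and Ccnd2 had a called negative one. Its signals were 1374 to 4569 (median 3422) in the 22 low arrays and 1395 to 4225 (1937) in the 15 high ones, with a slope of -0.26 ± 0.05 (adjusted p 6.3e-05). The ranges covered each other, with most high arrays in the lower part. Of its 6 other probe sets, 5 had negative slopes too (-0.14 to -0.30) and 1 dim one had 0.11. Ccnd1 (0.02 ± 0.05), Ccnd3 (-0.07 ± 0.06), Cdk2 (0.01 ± 0.05) and Cdk4 (-0.01 ± 0.04) were not called. With the luminal mean beside the B lymphocyte mean, however, Ccnd1 had a called positive slope of 0.23 ± 0.05 (adjusted p 0.00096). The lack of a positive G1 call thus depended on the fit. Among the inhibitors, Cdkn1b had a positive slope of 0.15 ± 0.05 (adjusted p 0.0093), Cdkn2c a negative one of -0.11 ± 0.04 (0.023), and Cdkn1a was not called (0.12 ± 0.08). The other, dimmer Cdkn1a probe set had a slope of 0.32 ± 0.11. Cdkn2c lost its call without AL+EX replicate 8 (-0.10). With each array centred on its own median, 11 slopes were called positive and 3 negative, the third being Ccnd3 (-0.15). After quantile normalization these counts were 12 and 1. Among all genes tested, calls in either direction were more numerous with centring than without it, and fewer after quantile normalization. The fall in called cell cycle genes with centring was thus not part of a general fall.

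**Figure D5:**
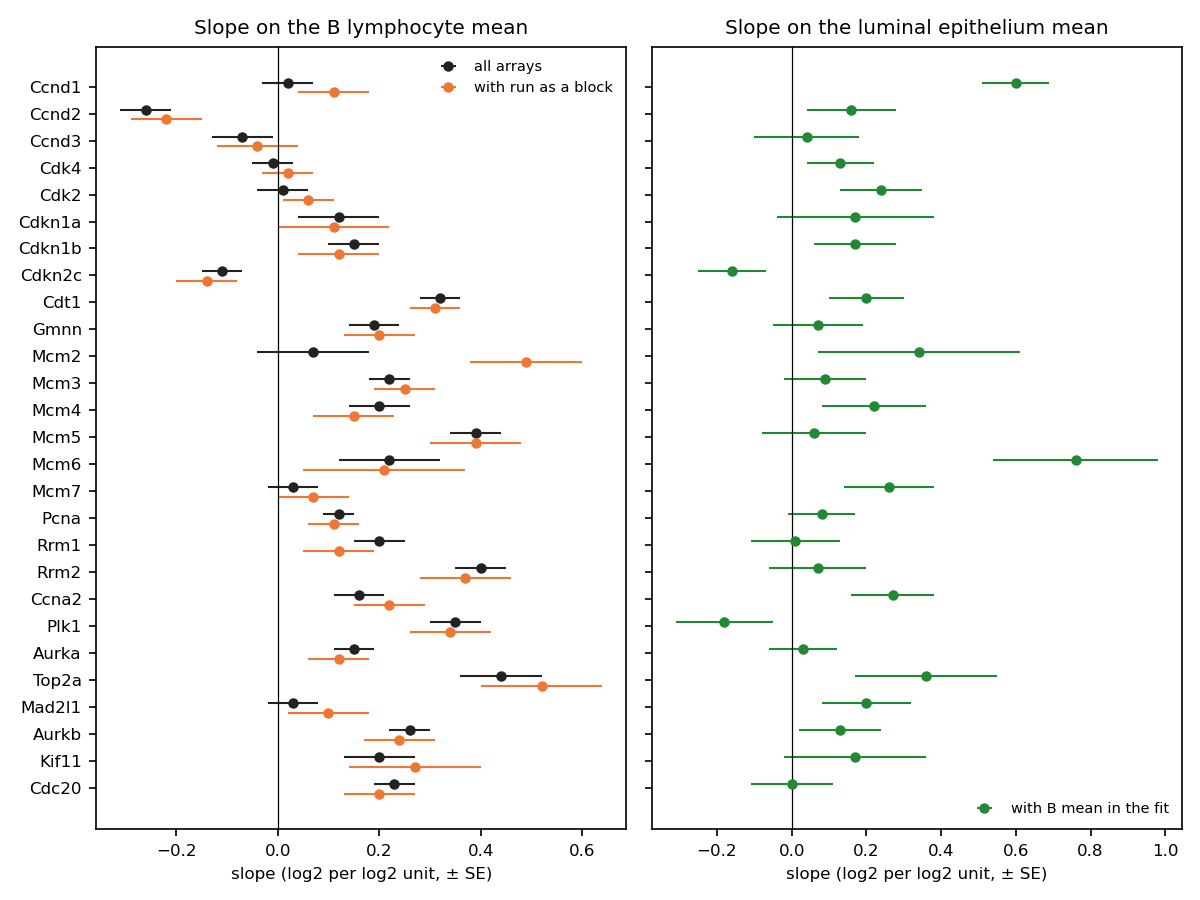
Slopes of the 27 tested genes with their SE, in log2 signal per log2 unit, on the B lymphocyte mean (left; black for all 37 arrays, orange with the run of animal numbers as a block) and on the luminal epithelium mean with the B lymphocyte mean in the fit (right). The black points of Top2a, Rrm2 and Mcm5 lie near 0.4, those of the G1 genes near or below 0, and Mcm2 moves from 0.07 to 0.49 with the block; on the right Ccnd1 (0.60) and Mcm6 (0.76) stand out.

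The runs held unequal numbers of arrays high in B lymphocyte genes, so the slopes were also taken within them. With run as a block, 8 of 27 slopes were called positive and 0 negative, where 4.14% of all genes were called positive. They were Top2a (0.52), Mcm2 (0.49), Mcm5 (0.39), Rrm2 (0.37), Plk1 (0.34), Cdt1 (0.31), Mcm3 (0.25) and Aurkb (0.24). Without the fourth run, in which all 8 arrays were high, 7 were called positive, where 3.48% of all genes were. Those were Top2a, Ccna2, Cdt1, Mcm5, Rrm2, Aurkb and Plk1. In the first run the median Top2a signal was 152.4 in 3 high arrays and 87 in 5 low ones, while Cd79b had 597 and 51.4. In the third run it was 134.6 in 3 high and 66.3 in 7 low arrays, with 490.9 and 50.5 for Cd79b. Cdt1 had 386.4 and 240.6 in the first run and 240.5 and 176.3 in the third. Ccnd2 had 2309 and 2938 in the first run and 1634 and 3017 in the third, so its direction also held within both. The 16 genes with a called positive slope, like Ccnd2, were picked on all arrays, those of these runs included. Agreement within a run was therefore partly built in, and no share of all genes was taken beside it. Of the 16 genes, 14 had a higher median in the high arrays of run 1 and 14 in those of run 3. The exceptions were Mcm4 (296 and 313.7) and Aurkb (109.7 and 110) in the first run, and Mcm3 (170.2 and 188) and Rrm1 (311.5 and 336.6) in the third. The second run held 1 high array and the fourth no low one.

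Mcm2 had the slope that changed most with the block. Its signals were 50 to 386.6 (median 157.4) in the 22 low arrays and 44.3 to 908.3 (184.6) in the 15 high ones, and its slope without the block was 0.07 ± 0.11 (adjusted p 0.63). With the block it was 0.49 ± 0.11 (adjusted p 0.0026). The run of animal numbers held a share of 0.458 of its variance. Its other probe set had a slope of 0.35 ± 0.07 without the block.

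Slopes were also fitted within either kind of array. Inside the 15 high arrays, 1 of 27 slopes was called positive (Mcm5, 0.54 ± 0.16, adjusted p 0.046), where 5.62% of all genes were. Errors were larger in these fewer arrays, and slopes differed between genes. Rrm2 had 0.52 ± 0.18, Top2a 0.49 ± 0.23, Plk1 0.43 ± 0.17 and Cdt1 0.30 ± 0.13, at or near their size over all arrays. Rrm1 had 0.45 ± 0.16 and Mcm2 -0.19 ± 0.42. Kif11 (0.01 ± 0.22) and Gmnn (0.02 ± 0.15), which were called over all arrays, had almost no slope here. At an unadjusted p under 0.05, limma marked 10 of 27 (37%, against 27% of all genes). Inside the 22 low arrays, where the B lymphocyte mean spanned little, limma called 0 of 27 and no other gene, with 3 of 27 at an unadjusted p under 0.05 (11.1%, against 8.86%), and Top2a (-0.10) and Ccnd2 (0.23) had the opposite sign. No cell cycle gene had all its 15 high arrays above all 22 low ones, which held for 0.183% of all genes. After removal of group means, the median correlation between pairs of the 19 tested S phase and mitosis genes was 0.286 within the 15 arrays and 0.125 within the 22. For all tested genes the medians were 0.00229 and 0.00958. Pairs share arrays and their RNA, so this is a description.

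In germinal centres B cells divide rapidly, and their genes were looked at beside the cell cycle genes. Of a list of 9, 4 were tested, and their mean was 7.30 to 7.85 in the low arrays and 7.53 to 8.43 in the high ones. Bcl6, the master factor of germinal centre B cells, had signals of 188.6 to 436 (median 286.5) in the low arrays and 186.1 to 774.4 (467.8) in the high ones. The highest values were in the high arrays and the lowest were close to each other. Bcl6 is also expressed by other cells of the gland. Whether the cell cycle signal came from such cells was not tested.

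At a given B lymphocyte level, Ccnd1 and Mcm6 went with the mean of luminal genes, while the count of called genes lay near the share of all genes. The slope on the mean of 21 luminal genes was called positive for 2 of 27 genes and negative for 0, where 4.32% of all genes were called positive. At an unadjusted p under 0.05, limma marked 6 of 27 (22.2%, against 20.2% of all genes). Ccnd1 had a slope of 0.60 ± 0.09 (adjusted p 3.1e-05) and kept its call in 37 of 37 fits that each left out 1 array. Mcm6 had a slope of 0.76 ± 0.22 (adjusted p 0.038) and was called in 3 of 10 alternative settings. It lost its call without AL+EX replicate 2 (0.73), CR replicates 1 (0.67), 4 (0.71), 5 (0.76), 8 (0.72) or 9 (0.72), or CR+EX replicates 1 (0.76), 6 (0.72) or 7 (0.67). Slopes were positive in 25 of 27 genes with a median of 0.16, beside 0.03 for all genes. The next in size were Top2a (0.36 ± 0.19, adjusted p 0.30) and Mcm2 (0.34 ± 0.27, 0.50).

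Other cell cycle genes came from lists of the same pathways, and the averaged CR contrast called 8.75% of all genes. Of 26 tested S phase genes, 0 rose and 2 fell in the averaged CR contrast, Ung (-0.45 ± 0.14), a uracil glycosylase, and Rpa1 (-0.27 ± 0.08), a subunit of the single-strand binding protein. Of 26 tested mitosis genes limma called 0, with 3 at an unadjusted p under 0.05 (11.5%, against 23.9% of all genes). Of 39 tested regulators, 2 rose and 2 fell. Those were Mycn (0.85 ± 0.27) and Ccni (0.22 ± 0.07) upward, and Gadd45b (-0.61 ± 0.14), a stress-induced gene, and Rbl2 (-0.42 ± 0.09), the pocket protein of the DREAM complex, downward. Slopes on the B lymphocyte mean were called positive for 10 of 26 S phase genes, 15 of 26 mitosis genes and 10 of 39 regulators, and negative for 0, 1 and 4, where 17.3% of all genes were called positive and 14.4% negative. The regulators thus lay nearer to the shares of all genes than the other 2 lists. The replication enzymes Fen1 (0.36 ± 0.11) and Pold1 (0.29 ± 0.03), the condensin subunit Smc4 (0.42 ± 0.04), the spindle gene Hmmr (0.29 ± 0.07) and the mitotic factor Foxm1 (0.27 ± 0.07) had positive slopes. Cks1b (-0.18 ± 0.04), Wee1 (-0.20 ± 0.07), the kinase that holds Cdk1 inactive, and Foxo3 (-0.25 ± 0.09) had negative ones. On the luminal mean, Gins1 (0.73), Foxm1 (0.55) and Cks1b (0.37) were called, 1 from each list, where 4.32% of all genes were called positive. These counts, 1 of 26 S phase genes, 1 of 26 mitosis genes and 1 of 39 regulators, lay near or below that share.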

How the data were processed

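Gene expression was measured on 37 Affymetrix arrays, 1 per mouse. The deposited values are signal intensities, not logged. GCOS version 1 is named in the submitters' processing notes; which algorithm gave the signals is not stated there. The arrays were already scaled by the authors, since the trimmed mean lay between 500.165 and 500.23 on each, and no further scaling was applied. Gene names came from the platform's annotation, checked by Entrez ID, of which 29 had no match and kept the platform's symbol. Of 22690 probe sets, 20380 named 1 gene, 691 several, 1555 none and 64 were controls. Depth does not apply to arrays, so the number of arrays limits the precision.

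Values were used as log2(signal + 16), with 1 probe set per gene (the highest mean over all arrays). The dimmest 25% of genes, with a mean below 6.71 (a signal of 88.7), were left out, which kept 9294 genes. Groups came from the labelled diet and wheel. A limma 3.58.1 model (R 4.3.3) of 4 group means, with 33 residual degrees of freedom and a variance trend on the mean signal, used all arrays. The 8 contrasts and an F test were two-sided, with Benjamini-Hochberg adjustment over all genes tested. Genes under 0.05 were called. Errors after ± are standard errors of that fit unless SD is written. Slopes added the centred B lymphocyte mean, or that and the luminal epithelium mean, to the fit, and the genes of those means were not tested. On simulated data, limma called 14.9%, 76.1% and 98.5% of genes given CR differences of 0.25, 0.5 and 1, and 0.099% of unchanged ones. Slopes of 0.125, 0.25 and 0.5 were called in 31.3%, 85.1% and 100% of genes. The simulated noise was independent for each gene and array, without runs or correlated genes, and 9094 of 9294 genes were left unchanged. These rates therefore need not hold for the real arrays.

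The cell cycle genes and the other gene lists were chosen with earlier results of these data known. All members were described, and of each further list up to 2 called genes in each direction were named. Promoter sequences are those of RefSeq. Alternatives changed the pseudocount, filter, scaling, probe set rule, variance trend, run, covariates and arrays included. The slopes without the fourth run and with an adipocyte mean were added after seeing the data. The labels do not pair animals of different groups.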

Additional observations from a re-analysis of the deposited data

Results flagged for a closer look

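In 3 of 108 sets made of 1 tested gene in 1 group, an array lay far from the others by Dixon's criterion at the 95% level. Chance marks about 1 in 20 such sets. Mcm2 had a signal of 908.3 in CR replicate 1, the highest of 9 arrays, where the next had 237.8. That array belonged to the first run of animal numbers and had a B lymphocyte mean of 8.63. Aurkb had 60.6 in AL replicate 6, the lowest of 10 arrays, where the nearest had 112.2. That array was low in B lymphocyte genes (6.82) and belonged to the third run. Kif11 had 12.6 in CR replicate 6, the lowest of 9 arrays, where the nearest had 62.5, and that array was also in the third run, with a B lymphocyte mean of 6.66.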

How the results depend on the processing

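Between groups, 0 of 27 genes were called for the wheel, the interaction, CR against AL, AL+EX against AL, CR+EX against AL and CR+EX against CR under all 13 alternative settings and all 37 fits that each left out 1 array. For the averaged CR contrast, 3 were called with the run of animal numbers as a block, 1 (Cdc20, 0.31, adjusted p 0.031) with the B lymphocyte mean as a covariate, 1 (Mcm7) in the 22 arrays low in B lymphocyte genes, and 0 to 1 when 1 array was left out. With all probe sets of a gene averaged, the CR difference of Cdc20 was -0.01. CR+EX against AL+EX called 2 and the F test 1 with the run block, and 0 otherwise. Positive and negative slopes on the B lymphocyte mean together were 18. They were 5 of 11 with the dimmest 50% of genes left out, 8 with the run block, 7 without the fourth run, 1 in the 15 high arrays, 0 in the 22 low ones and 16 to 18 when 1 array was left out. They were 18 with Cd79b alone or with T lymphocyte genes in place of the mean. In the 22 low arrays the slopes of Top2a (-0.10), Pcna (-0.54), Rrm1 (-0.28), Cdkn1b (-0.75), Ccnd2 (0.23) and Cdkn2c (0.48) turned sign, as did that of Cdkn2c in the 15 high ones (0.02). None of these reversed slopes was called, and the cause was not tested. Slopes on the luminal mean fell from 2 called to 1 with a pseudocount of 1, with no genes left out, with the dimmest 50% left out, after quantile normalization, with probe sets averaged, with the run block and when the 5 arrays whose Gapdh ratio (3′ over 5′) exceeded 2 were left out. Those 5 arrays were AL replicates 1, 2 and 8 and CR+EX replicates 1 and 2, with ratios from 2.37 to 7.03, so none came from AL+EX or CR. The fit with no genes left out also took dim genes into both means, and with the means kept as they were 2 were called (Mcm6 at adjusted p 0.049). Luminal slopes fell to 0 called without the 15 high arrays and were 1 to 2 when 1 array was left out. With the dimmest 50% left out, fewer genes were tested, and without the 15 high arrays fewer samples.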

Other observations

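Of the 38 further probe sets of the cell cycle genes, 33 had a slope on the B lymphocyte mean of the same sign as the probe set used. The 2 lists of lymphocyte genes moved together across arrays, and the averaged CR contrast called 0 of 13 B lymphocyte and 0 of 7 T lymphocyte genes. The median SD of the 27 tested cell cycle genes over the 37 arrays was 0.40 on the log2 scale, beside 0.35 for all genes tested.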
